A study of Homo sapiens with 8 samples.

Results

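Integrins are receptors that bind the extracellular matrix, and each is a pair of 1 α and 1 β subunit. The rows of the expression table for 10 of these subunits in Panc-1 cells are described here: the α subunits ITGA2, ITGA3, ITGA5, ITGA6 and ITGAV and the β subunits ITGB1, ITGB3, ITGB4, ITGB5 and ITGB8. They were taken by gene symbol, and all 10 were found among the 13307 genes of the table. mRNA was sequenced in 4 groups of 2 libraries each. All groups were PANC-1 cells, a pancreatic cancer cell line, transfected with siRNA. The siControl cells received a non-targeting siRNA and the siPHF13 cells received siRNA against PHF13, a chromatin protein that binds trimethylated lysine 4 of histone H3. In the siControl_TGFβ and siPHF13_TGFβ groups the same transfections were followed by 10 ng/ml TGFβ for 48 h. The untreated groups received no TGFβ, and no library from untransfected cells was used here. A single line was studied, and the sources used here do not say whether the 2 libraries of a group came from separate cultures. The p-values therefore measure only the spread between these libraries, which may be technical.

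The partner of a subunit sets what the receptor binds. ITGB1 pairs with ITGA2 in a collagen receptor, with ITGA3 or ITGA6 in laminin receptors and with ITGA5 in the main fibronectin receptor. ITGAV pairs with ITGB1, ITGB3, ITGB5 or ITGB8 in receptors for matrix proteins that carry the RGD peptide, such as vitronectin and fibronectin, and some of them release TGFβ from its latent complex. ITGA6 with ITGB4 binds laminin in the hemidesmosome, which anchors epithelial cells to the basement membrane. In carcinoma cells TGFβ is known to induce an epithelial-mesenchymal transition, with more binding to fibronectin and fewer hemidesmosomes.

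Each value below is a normalized count, the reads on a gene's exons divided by the authors' size factor for the library. The libraries held between 39196214 and 46700806 reads on genes. A gene was called changed when its adjusted p was under 0.05 and its log2 fold change was above 0.58 or below -0.58 (limma's moderated test with Benjamini-Hochberg adjustment over the 13307 genes). Each log2 fold change is given with its standard error on the log2(normalized count + 1) scale. PHF13 itself had 1804 and 1662 normalized counts in siControl, 524.2 and 558.3 in siPHF13, 1586 and 1709.5 in siControl_TGFβ and 512.8 and 529.4 in siPHF13_TGFβ. The depleted libraries lay below all control libraries. PHF13 stood at 31.2% of the control mean without TGFβ and at 31.6% with TGFβ. Of the 7 epithelial duct markers fixed for these cells, all 7 were in the table. KRT8 lay between 70722.5 and 120045 normalized counts over the 8 libraries, while CDH1 lay between 78.8 and 459.5. None of 8 acinar and endocrine markers was among the genes of the table. Of 6 blood and endothelial markers only CD68 was in it, and of 6 fibroblast and stellate markers COL1A1 and PDGFRB were.

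The members differed widely in level. Per kb of the canonical transcript, ITGB1 was highest in siControl cells with 19462 normalized counts per kb, followed by ITGA3 with 10605, ITGA2 with 9504, ITGA5 with 8233, ITGAV with 5480 and ITGB5 with 4559. ITGA6 followed with 3001, then ITGB4 with 587, ITGB3 with 139 and ITGB8 with 32.9. No neighbours in this order overlapped between the libraries of siControl. In siPHF13 cells the libraries of ITGA5 and ITGA2 overlapped, with 6992 and 6989 per kb. With TGFβ in siControl cells ITGA5 reached 23477 per kb, and its libraries overlapped with those of ITGB1 at 23701 per kb. The order rests on the transcript chosen. Per kb of all annotated exons ITGA2, not ITGB1, was highest in siControl, at 9441 against 4992 normalized counts per kb.

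**Figure D1:**
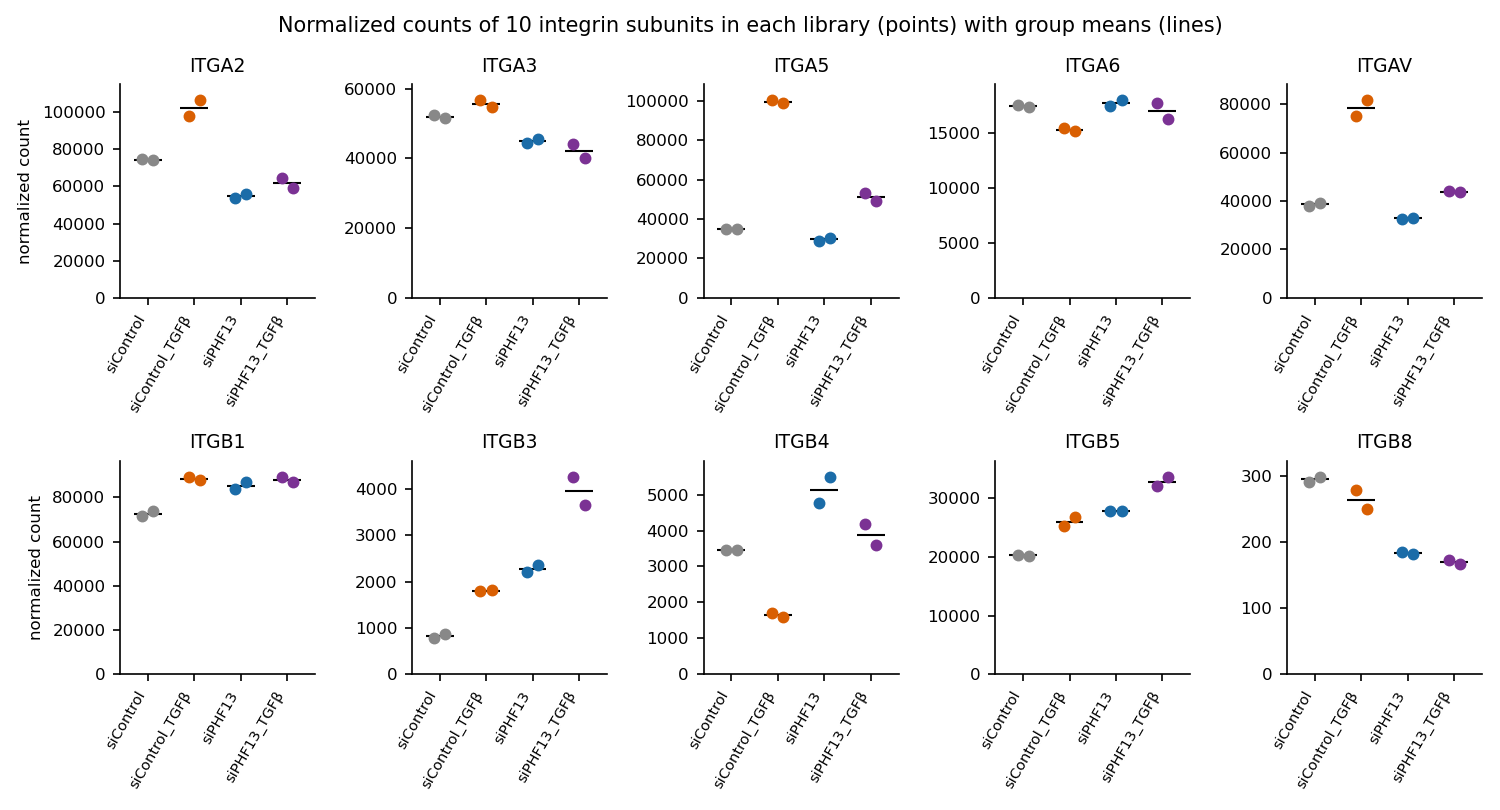
Normalized counts (vertical axis, from 0, own scale per panel) of the 10 integrin subunits in the 4 groups (horizontal axis), with 1 point per library and a line at the group mean. ITGA5 and ITGAV are highest in siControl_TGFβ, ITGB3 in siPHF13_TGFβ and ITGB4 in siPHF13, and the points of ITGA6 lie between 15202 and 17968.

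ITGA5 and ITGAV were both called higher with TGFβ in siControl cells and lower after PHF13 depletion in TGFβ-treated cells. The sequence before the annotated starts of both genes is shown for that reason. Both comparisons share the siControl_TGFβ libraries, so that these opposite calls are not independent. ITGA5 lies on chromosome 12 from 54789045 to 54813050, minus strand, and ITGAV on chromosome 2 from 187454737 to 187545628, plus strand (hg19, GENCODE). RefSeq start sites were matched for 7 of the 10 members, ITGA2, ITGA5, ITGA6, ITGAV, ITGB1, ITGB5 and ITGB8, with 12 windows in all, and not for ITGA3, ITGB3 and ITGB4. The 250 bases before a start are printed 5′ to 3′ on the strand of the gene, from RefSeq in the build GRCh38.p14, and capitals mark the core motif bound by SMAD proteins, the transcription factors of the TGFβ pathway.
ITGA5, chr12:54419267-54419516, minus strand: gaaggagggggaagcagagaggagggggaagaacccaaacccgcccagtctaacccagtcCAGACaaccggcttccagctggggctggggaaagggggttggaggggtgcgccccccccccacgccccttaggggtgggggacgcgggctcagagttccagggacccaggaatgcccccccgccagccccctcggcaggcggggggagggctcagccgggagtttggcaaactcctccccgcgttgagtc
ITGAV, chr2:186589806-186590055, plus strand: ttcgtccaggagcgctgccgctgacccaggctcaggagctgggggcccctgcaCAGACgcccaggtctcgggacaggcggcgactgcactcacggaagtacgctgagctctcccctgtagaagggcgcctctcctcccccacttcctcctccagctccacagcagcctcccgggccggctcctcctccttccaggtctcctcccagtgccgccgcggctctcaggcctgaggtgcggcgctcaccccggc
The letters searched were CAGAC for SMAD, TGANTCA for AP-1 and GGGCGG for SP1, on both strands. CAGAC and TGANTCA share no match here. ITGA5 held 1 CAGAC match, beginning 190 bases before its start, and the ITGAV window shown held 1, beginning 197 bases before its start. A second ITGAV start and the ITGA2 window held none. CAGAC was found in 5 of the 12 member windows and in 38% of all 35116 windows of this length, so that the share among the members was near that of all windows. TGANTCA was in 0 of the 12 member windows and in 6.57% of all windows. GGGCGG, which is not marked in the sequences above, was in 7 of the 12 member windows and in 42.6% of all windows. A match describes letters only, and binding was not measured here.

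To see which subunits responded to TGFβ when PHF13 was present, siControl_TGFβ was compared with siControl. ITGA5, ITGAV and ITGB3 rose, ITGB4 fell, and the other 6 members were not called. In all, 4 of 10 members were called, beside 4.79% of all genes tested. Of all genes 3.27% rose and 1.52% fell. The median log2 fold change of the members was 0.32, and that of all genes was -0.006. This comparison and that of depletion without TGFβ share the siControl libraries. In bulk RNA, fewer cells of a type and less RNA per cell cannot be told apart.

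ITGA5, the α subunit of the fibronectin receptor, had 35066 and 34918 normalized counts in siControl and 100454 and 99104 in siControl_TGFβ. Both treated libraries lay far above both untreated ones. The log2 fold change was 1.51 ± 0.06 (adjusted p = 2.51e-09), a 2.85-fold rise of the mean. ITGAV had 38114 and 39034 normalized counts without and 74932 and 81615 with TGFβ. The groups did not overlap, and the change was 1.02 ± 0.06 on the log2 scale (adjusted p = 8.6e-08). ITGB3, the partner of ITGAV in a vitronectin receptor, was a low subunit in siControl, with 779.6 and 866.8 normalized counts. With TGFβ it had 1792 and 1809, a log2 fold change of 1.13 ± 0.09 (adjusted p = 1.33e-06).

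ITGB4, the hemidesmosome subunit, was the only member called lower. It had 3454 and 3469.8 normalized counts in siControl and 1715 and 1587 in siControl_TGFβ, so that the treated libraries stood at 47.7% of the untreated mean. The log2 fold change was -1.07 ± 0.09 (adjusted p = 1.98e-06). ITGA6, its partner, had 17525 and 17387 normalized counts without and 15404 and 15202 with TGFβ. The groups of ITGA6 did not overlap, but the change of -0.19 ± 0.06 on the log2 scale stayed below the fold threshold.

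ITGA2, the collagen receptor subunit, had 74854 and 74234 normalized counts in siControl and 98154 and 106483 in siControl_TGFβ. Both treated libraries were higher, with a log2 fold change of 0.46 ± 0.07 (adjusted p = 0.000341) that did not reach the fold threshold. ITGB1, the common partner, had 71748 and 73631 without and 89303 and 87739 with TGFβ, a log2 fold change of 0.28 ± 0.06. ITGB5, another ITGAV partner, had 20272 and 20210.5 without and 25188 and 26819 with TGFβ, a log2 fold change of 0.36 ± 0.06. All 3 had an adjusted p under the threshold and a fold below it. ITGA3, a laminin receptor subunit, differed by 0.10 ± 0.06 (adjusted p = 0.308), with an interval from -0.03 to 0.24. ITGB8, which pairs with ITGAV and binds latent TGFβ, had 291.2 and 299.1 normalized counts without and 279.2 and 249.9 with TGFβ, a log2 difference of -0.16 ± 0.15 (adjusted p = 0.547).

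Depletion of PHF13 was first compared without TGFβ, as siPHF13 against siControl. The called members were both β subunits. ITGB3 rose and ITGB8 fell, while limma called 0 of the 5 α subunits, of which 4 had an unadjusted p under 0.05. Called members numbered 2 of 10, and 18.4% of all genes were called in this comparison, so that the share among the members was near that of all genes. Of all genes 7.95% rose and 10.4% fell. The median log2 fold change was -0.09 for the members and -0.001 for all genes.

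ITGB3 had 779.6 and 866.8 normalized counts in siControl and 2203 and 2358 in siPHF13. Both depleted libraries also lay above both siControl_TGFβ libraries of this gene, at 1792 and 1809. The log2 fold change of ITGB3 after depletion was 1.47 ± 0.09 (adjusted p = 2.95e-08). ITGB8 had 291.2 and 299.1 normalized counts in siControl and 185.0 and 182.5 in siPHF13, and stood at 62.3% of the siControl mean. Its log2 fold change was -0.68 ± 0.15 (adjusted p = 0.0022). The fall of ITGB8 was -0.52 and no longer called after adjustment for GC content and transcript length.

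Most other members differed by less than the fold threshold. ITGB4 had 4764 and 5496 normalized counts in siPHF13 against 3454 and 3469.8 in siControl, a log2 fold change of 0.56 ± 0.09 (adjusted p = 0.000133). This value lies just under the fold threshold, and ITGB4 was called without siPHF13 replicate 1 (0.67) and after the GC and length adjustment (0.59). ITGB5 had 27735 and 27805 normalized counts against 20272 and 20210.5, and its log2 fold change of 0.46 ± 0.06 was not called. ITGB1 had 83793 and 86873 in siPHF13, a log2 fold change of 0.23 ± 0.06.

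The α subunits lay lower, apart from ITGA6. ITGA2 had 53609.6 and 56021 normalized counts in siPHF13, a log2 difference of -0.44 ± 0.07 from siControl. ITGA5 had 28780.2 and 30649.9, a difference of -0.24 ± 0.06. ITGAV had 32682 and 33079.5, a difference of -0.23 ± 0.06. ITGA3 had 44364 and 45410.1 against 52280.5 and 51419 in siControl, a difference of -0.21 ± 0.06. In these 4 members both siPHF13 libraries were below both siControl libraries, and the adjusted p lay between 0.000103 and 0.0137. ITGA6 had 17471 and 17968, which overlapped with siControl, and its difference of 0.02 ± 0.06 had an interval from -0.11 to 0.15.

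The same depletion was then compared in TGFβ-treated cells, as siPHF13_TGFβ against siControl_TGFβ. Here ITGA2, ITGA5, ITGAV and ITGB8 were called lower in depleted cells, and the 2 β subunits ITGB3 and ITGB4 were called higher. Called members numbered 6 of 10, beside 20.5% of all genes tested. Of all genes 8.81% were higher and 11.7% were lower. The median log2 fold change was -0.21 for the members and 0.003 for all genes. This comparison shares the siControl_TGFβ libraries with that of TGFβ in siControl cells. A rise in one and a fall in the other are therefore not independent.

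ITGA5 had 53078 and 49443 normalized counts in siPHF13_TGFβ against 100454 and 99104 in siControl_TGFβ, or 51.4% of the mean. The log2 fold change was -0.96 ± 0.06 (adjusted p = 4.35e-08). Both depleted libraries were still above the untreated libraries of either transfection. ITGAV had 44069 and 43761 against 74932 and 81615, a log2 fold change of -0.83 ± 0.06 (adjusted p = 1.37e-07). ITGA2 had 64347 and 59292 against 98154 and 106483, a log2 fold change of -0.73 ± 0.07 (adjusted p = 1.13e-06). The ITGA2 libraries in siPHF13_TGFβ lay below those of siControl without TGFβ. After the GC and length adjustment ITGA2 differed by -0.50 and was not called.

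ITGB4 moved the other way. It had 4168 and 3584 normalized counts in siPHF13_TGFβ against 1715 and 1587 in siControl_TGFβ, a 2.35-fold higher mean, and the log2 fold change was 1.23 ± 0.09 (adjusted p = 1.12e-07). Both libraries of siPHF13_TGFβ lay above the 2 siControl libraries without TGFβ. ITGB3 had 4264 and 3656 against 1792 and 1809, a log2 fold change of 1.13 ± 0.09 (adjusted p = 2.65e-07). The siPHF13_TGFβ libraries held the highest ITGB3 values of all 8 libraries. ITGB8 had 173 and 167 against 279.2 and 249.9, a log2 fold change of -0.64 ± 0.15 (adjusted p = 0.00317). The ITGB8 call was lost without siControl_TGFβ replicate 1 (-0.56) and after the GC and length adjustment (-0.40).

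ITGB1, the shared partner, had 89201 and 86749 normalized counts in siPHF13_TGFβ and 89303 and 87739 in siControl_TGFβ. The groups overlapped, and the log2 difference was -0.01 ± 0.06 with an interval from -0.14 to 0.12. The sign of this difference turned in 3 alternatives. ITGB5 had 32024 and 33628 against 25188 and 26819, and was higher by 0.34 ± 0.06 without passing the fold threshold. ITGA3 had 43974 and 40074 against 56633 and 54769.7, a difference of -0.41 ± 0.06. ITGA6 had 17702 and 16282 against 15404 and 15202, a difference of 0.15 ± 0.06.

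**Figure D2:**
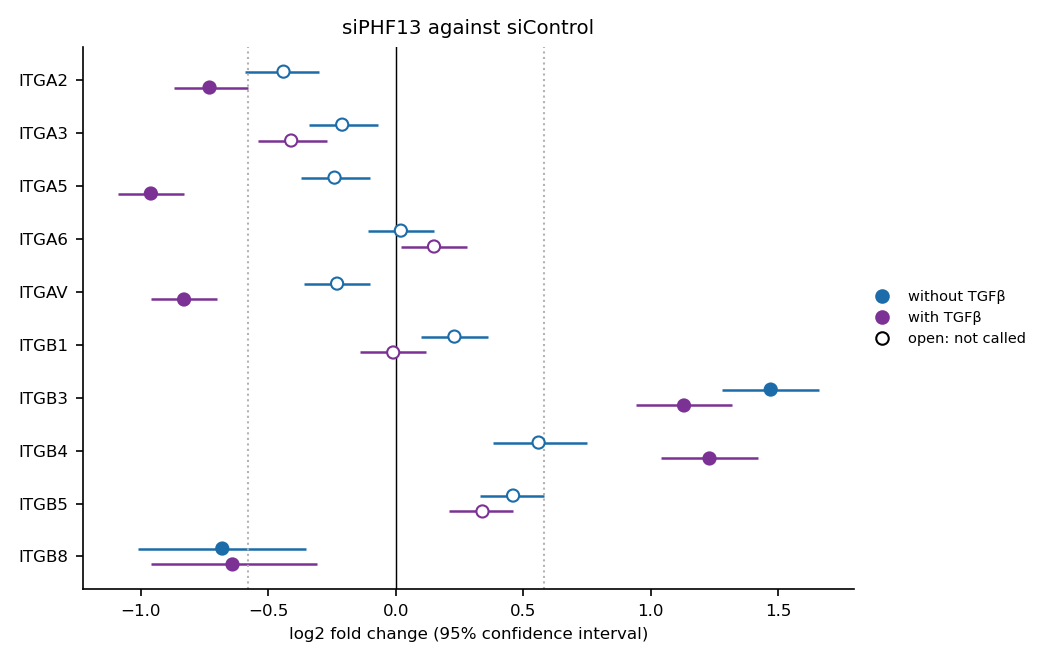
Log2 fold change of siPHF13 against siControl (horizontal axis, with 95% confidence interval) for the 10 members, without TGFβ (blue) and with TGFβ (purple), where filled points were called, open points were not and dotted lines mark the fold threshold. ITGA2, ITGA5, ITGAV and ITGB4 are called with TGFβ and not without it. Without TGFβ they lie at -0.44, -0.24, -0.23 and 0.56, each with an adjusted p under 0.05 by limma. ITGB3 and ITGB8 are called in both settings.

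TGFβ was also compared within depleted cells, as siPHF13_TGFβ against siPHF13. ITGA5 and ITGB3 rose, so that 2 of 10 members were called beside 1.35% of all genes, with 1.13% higher and 0.218% lower. Of the members limma called 0 lower, and 1, ITGB4, was lower at an unadjusted p under 0.05. The median log2 fold change was 0.11 for the members and -0.008 for all genes. ITGA5 rose from 28780.2 and 30649.9 to 53078 and 49443, by 0.79 ± 0.06 on the log2 scale (adjusted p = 4.7e-06). ITGB3 rose from 2203 and 2358 to 4264 and 3656, also by 0.79 ± 0.09 (adjusted p = 0.000124). For both genes the 4 libraries fell into separate ranges. ITGAV differed by 0.42 ± 0.06 (adjusted p = 0.0011) and ITGB4 by -0.40 ± 0.09 (adjusted p = 0.0201), and neither reached the fold threshold. ITGB5 differed by 0.24 ± 0.06 (adjusted p = 0.0383). The other 5 members differed by between -0.11 and 0.17 on the log2 scale, with adjusted p between 0.237 and 0.828.

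Whether the response to TGFβ itself differed between the transfections was tested with the interaction term, the log2 response in siPHF13 cells minus that in siControl cells. It was called for ITGA5, ITGAV and ITGB4, 3 of 10 members, beside 0.308% of all genes. The response was called lower in siPHF13 cells for 0.248% of all genes and higher for 0.0601%. The median interaction was -0.22 for the members and -0.007 for all genes. ITGA5 rose 2.85-fold with TGFβ in siControl cells and 1.73-fold in siPHF13 cells, a difference of -0.73 ± 0.09 on the log2 scale (adjusted p = 0.0015). This call held under every alternative run for it. ITGAV rose 2.03-fold and had a 1.34-fold mean in siPHF13 cells, a difference of -0.60 ± 0.09 (adjusted p = 0.00631). ITGB4 stood at 0.477 of its untreated mean in siControl cells and at 0.756 in siPHF13 cells, a difference of 0.66 ± 0.12 (adjusted p = 0.0326).

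The last 2 differences kept their size when 1 library was left out, between -0.66 and -0.54 for ITGAV and between 0.56 and 0.77 for ITGB4, but their calls did not hold in all of these fits. Without siControl replicate 1 the ITGAV difference was -0.58 with an adjusted p of 0.0982, without siControl replicate 2 it was -0.62 with an adjusted p of 0.102, and without siControl_TGFβ replicate 2 it was -0.54 with an adjusted p of 0.0418, none of them called. It was also not called after the GC and length adjustment (-0.54). The ITGB4 difference lay between 0.56 and 0.72 when 1 of siControl replicates 1 and 2, siControl_TGFβ replicates 1 and 2, siPHF13 replicate 1 or siPHF13_TGFβ replicate 1 was left out, and it was called in none of these 6 fits. For ITGB3, whose response was 2.19-fold in siControl and 1.74-fold in siPHF13 cells, the difference of -0.34 ± 0.13 was not called (adjusted p = 0.37), with an interval from -0.61 to -0.07. ITGA2 differed by -0.28 ± 0.09 (adjusted p = 0.288), and the interval of ITGB8 ran from -0.42 to 0.51.

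**Figure D3:**
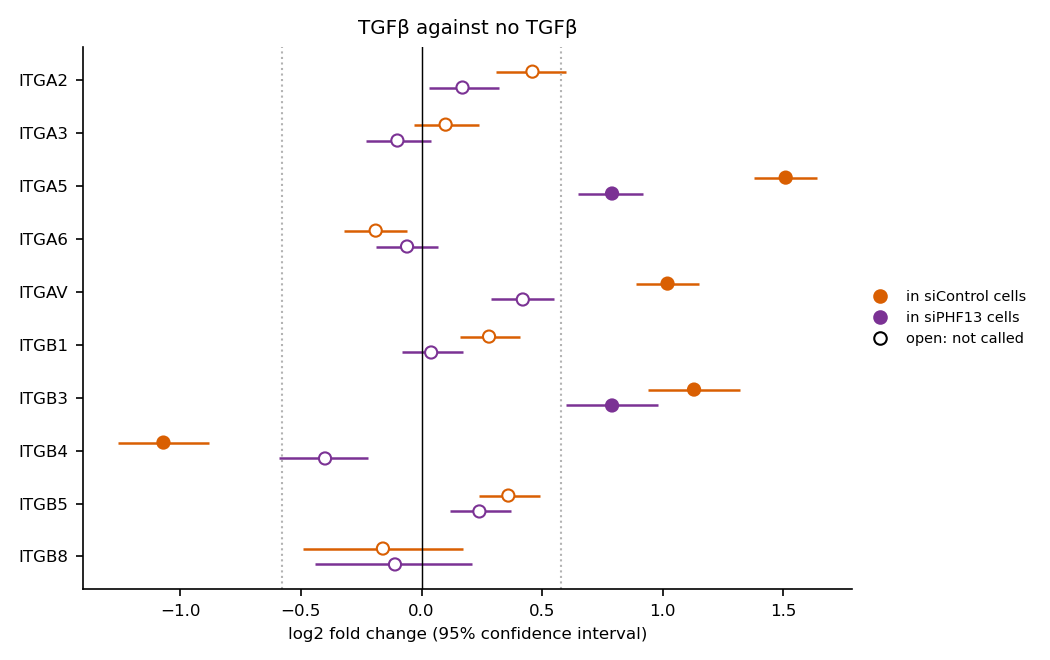
Log2 fold change with TGFβ (horizontal axis, with 95% confidence interval) for the 10 members in siControl cells (orange) and siPHF13 cells (purple), with filled points called, open points not called and dotted lines at the fold threshold. For ITGA5, ITGAV and ITGB4 the intervals of both transfections lie apart, at 1.51 against 0.79, 1.02 against 0.42 and -1.07 against -0.40.

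The mix of subunits was then summed per kb of canonical transcript over the α and over the β subunits of the table, other subunits included. ITGA5 made up 22.2% of the α sum in both siControl libraries and 38.6% and 37.3% in siControl_TGFβ. In siPHF13_TGFβ it made up 31.9% and 31.7%, between the untreated and the treated control. ITGA3 held 28.8% and 28.4% of the α sum in siControl and 18.9% and 17.9% in siControl_TGFβ. The share of ITGA6 was 8.11% and 8.08% in siControl, 4.32% and 4.18% in siControl_TGFβ and 7.76% and 7.64% in siPHF13_TGFβ. A share falls when other subunits rise, and the count of ITGA6 itself was not called in any comparison. On the β side ITGB1 held between 72.3% and 79.0% in every library, and ITGB5 between 18.2% and 23.6%. ITGB3, at 0.534% and 0.582% of the β sum in siControl, reached 2.20% and 1.92% in siPHF13_TGFβ. The values depend on the lengths used. With all annotated exons ITGA5 made up 19.5% and 19.6% of the α sum in siControl, 35.7% and 34.3% in siControl_TGFβ and 28.9% in both siPHF13_TGFβ libraries, while ITGB1 held between 48.7% and 58.1% of the β sum. These shares describe mRNA, and protein at the surface was not measured in these files.

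**Figure D4:**
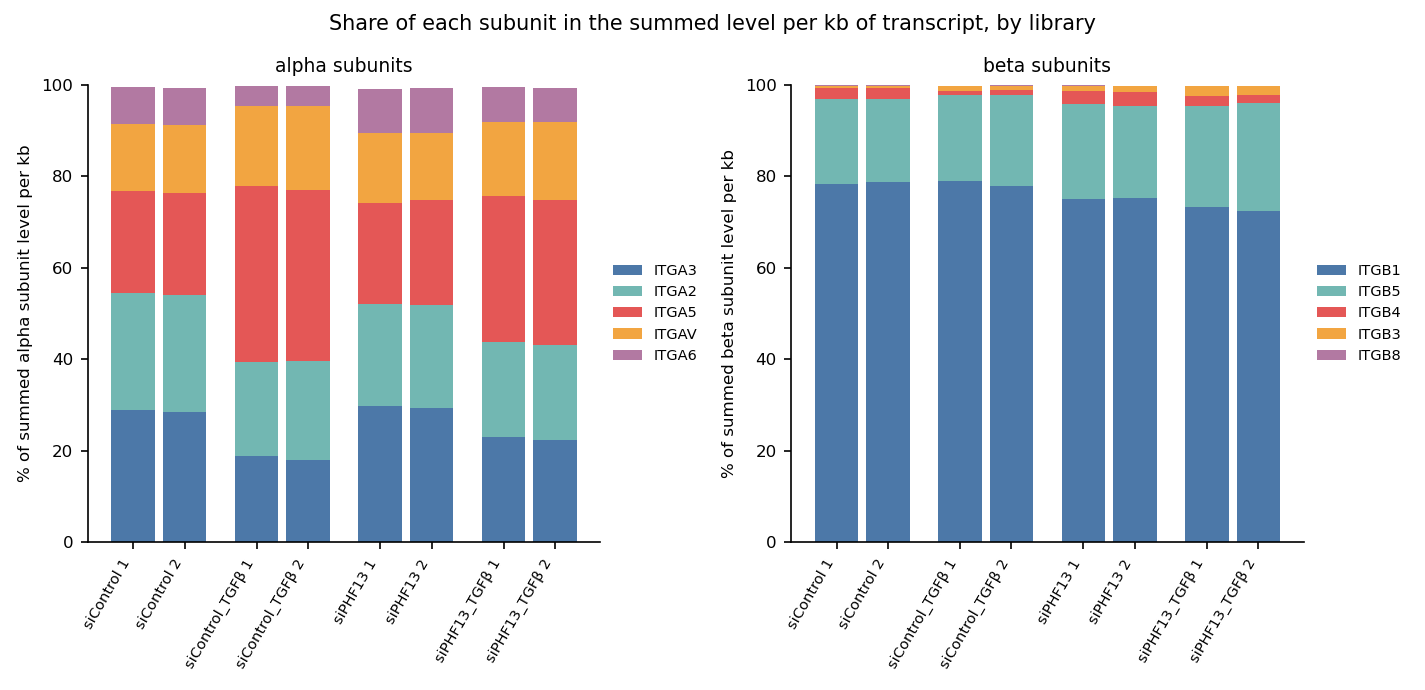
Percentage of the summed α level (left) and β level (right) per kb of canonical transcript that each member takes (stacked bars, vertical axis from 0 to 100%), for each of the 8 libraries. The ITGA5 band is widest in the siControl_TGFβ libraries, at 38.6% and 37.3%, and ITGB1 takes at least 72.3% of the β sum in every library.

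ITGB3 had the widest range of group means among the members, 2.26 on the log2 scale between siControl and siPHF13_TGFβ, followed by ITGA5 with 1.75, ITGB4 with 1.63 and ITGAV with 1.25. The narrowest were ITGB1 with 0.28 and ITGA6 with 0.21. Over the 8 libraries, the 5 genes whose centred log2 values lay nearest to ITGB3 were MT1A, ANKRD1, ADAMTS10, CNTD2 and PODXL. Their root mean square difference from ITGB3 was between 0.095 and 0.174 on the log2 scale. MT1A, a metallothionein, had group means of 531.3 normalized counts in siControl, 1202 in siControl_TGFβ, 1561 in siPHF13 and 2489 in siPHF13_TGFβ. The same order of groups held for ITGB3. PODXL, a sialomucin of the cell surface, had 11359, 26242, 28678 and 42372 in that order. Among the members, ITGA5 lay 0.225 from ITGAV and 1.253 from ITGB4, the largest distance of any pair. ITGAV lay as near to ITGA2, at 0.221, and the smallest distance was 0.167, between ITGB1 and ITGB5.

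**Figure D5:**
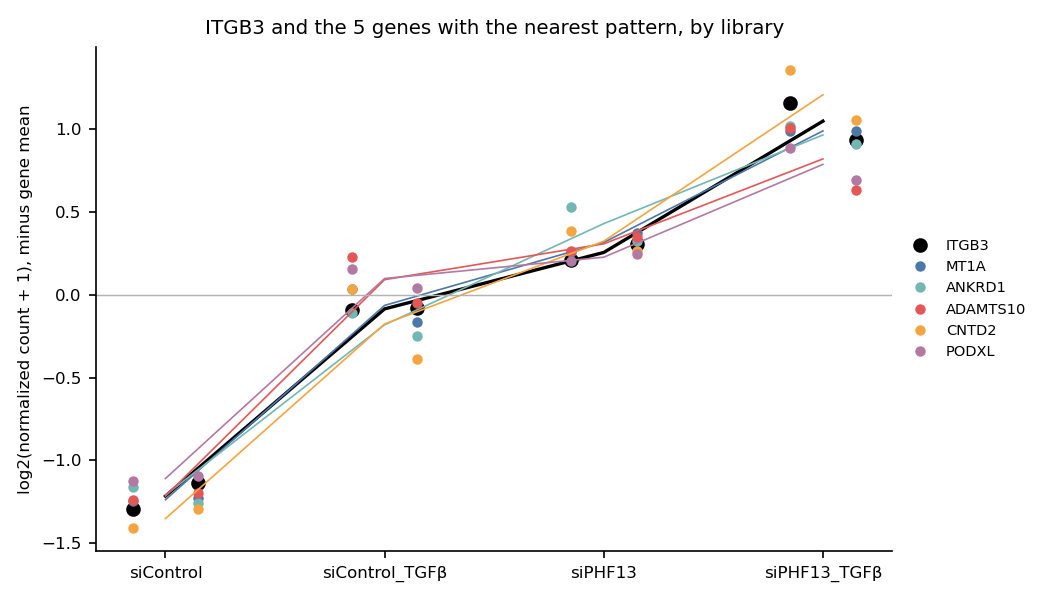
Centred log2(normalized count + 1) values (vertical axis, each gene minus its mean) of ITGB3 (black) and the 5 genes nearest to it, in the 4 groups (horizontal axis), with points for libraries and lines through group means. All 6 genes are lowest in siControl and highest in siPHF13_TGFβ.

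The table also held 10 of the 16 other human integrin subunits, most at low counts. ITGA1, another collagen receptor subunit, had 196.3 and 227.1 normalized counts in siControl and 307.3 and 330.5 in siPHF13, a called log2 fold change of 0.59 ± 0.14 (adjusted p = 0.00322). This value lies just past the fold threshold, with an interval from 0.29 to 0.89. The calls of the other subunits were not checked with a library left out. ITGA10, also a collagen receptor subunit, had 382.2 and 337.0 in siControl and 230.7 and 199.5 in siControl_TGFβ. It fell with TGFβ by 0.74 on the log2 scale (SE 0.14, adjusted p = 0.00213) and was higher in siPHF13_TGFβ than in siControl_TGFβ by 1.18 ± 0.14 (adjusted p = 9.61e-06). ITGA10 thus passed the test in the same comparisons and directions as ITGB4, apart from the interaction (0.61 ± 0.19, adjusted p = 0.263). All of these comparisons use the siControl_TGFβ libraries. ITGA11, also a collagen receptor subunit, rose from 17.1 and 15.3 to 57.1 and 44.2 normalized counts with TGFβ in siControl cells, by 1.58 ± 0.39 (adjusted p = 0.0145).

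Of the leukocyte subunits, ITGAM fell after depletion without TGFβ (-1.39 ± 0.26) and with it (-0.77 ± 0.26), from means of 152.3 and 117.8 normalized counts. ITGAE was lower in siPHF13_TGFβ than in siControl_TGFβ by -0.65 ± 0.17 (adjusted p = 0.00522), and ITGAX was higher by 1.73 ± 0.63 (adjusted p = 0.0334) at means of 35.1 and 11.2. ITGA2B, ITGA7, ITGB2 and ITGB6 were not called in any comparison. ITGB6, the epithelial partner of ITGAV, had at most 37.0 normalized counts in the untreated or TGFβ-treated siControl libraries. Of the 10 other subunits limma called 0 for TGFβ in siPHF13 cells and 0 for the interaction, beside 1.35% and 0.308% of all genes. In each of these comparisons 1 had an unadjusted p under 0.05, ITGA7 for TGFβ (-1.06 ± 0.32) and ITGA10 for the interaction.

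The ligands of these receptors were the next group, from lists chosen for this purpose. Of 7 collagen genes, 4 rose with TGFβ in siControl cells, 3 rose in siPHF13 cells, and after depletion 3 were lower with TGFβ, beside 4.79%, 1.35% and 20.5% of all genes called in these comparisons. The medians were 1.00, 0.71 and -0.36. COL1A1, a chain of the fibrillar collagen that ITGA2 with ITGB1 binds, had 3345 and 3433 normalized counts in siControl, 16414 and 15334 in siControl_TGFβ, 1922 and 1887 in siPHF13 and 4909 and 4691 in siPHF13_TGFβ. Its 4 groups did not overlap. It rose with TGFβ by 2.23 ± 0.06 on the log2 scale in siControl and by 1.33 ± 0.06 in siPHF13 cells, and the difference of -0.89 ± 0.09 was called (adjusted p = 0.000358). COL5A1, another fibrillar chain, rose by 2.22 ± 0.12 and by 1.21 ± 0.12, a difference of -1.01 ± 0.16 (adjusted p = 0.0161) that was not called when any of 5 single libraries was left out. Unlike COL1A1, it was higher after depletion without TGFβ, by 1.48 ± 0.12. COL4A1 and COL6A1 fell after depletion in both settings, COL4A1 by 1.75 and 2.10 and COL6A1 by 1.01 and 0.91 on the log2 scale without and with TGFβ. COL4A1 rose with TGFβ in siControl cells by 1.06 ± 0.21. COL4A2, the other chain of the basement membrane collagen, rose with TGFβ in both transfections, by 1.00 ± 0.11 in siControl and 1.02 ± 0.11 in siPHF13 cells.

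Of 10 laminin chains, 2 rose and 2 fell after depletion without TGFβ, and 1 rose and 2 fell with it, beside 18.4% and 20.5% of all genes called, with medians of 0.16 and 0.20. LAMA4 rose, with 1705 and 1572 normalized counts in siControl and 4070.1 and 4677 in siPHF13, by 1.41 ± 0.08 without and 1.23 ± 0.08 with TGFβ. LAMA5, a chain of basement membrane laminins, fell by 0.72 without TGFβ and by 0.77 with it. With TGFβ in siControl cells LAMB3 rose by 0.86 ± 0.11 and LAMA3 fell by 0.79 (SE 0.10), although both encode chains of one laminin that ITGA3 and ITGA6 bind. LAMB3 also rose in siPHF13 cells, by 0.71 ± 0.11.

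Of 9 genes for RGD-bearing and matricellular ligands, 3 rose with TGFβ in siControl cells and 1 in siPHF13 cells, beside 4.79% and 1.35% of all genes called, with medians of 0.57 and 0.24. CTGF, a matricellular protein and target of TGFβ, rose by 1.32 ± 0.07 and by 0.66 ± 0.07, and the difference of -0.66 ± 0.10 was called (adjusted p = 0.00909), but not when any of 3 single libraries was left out. It also rose after depletion without TGFβ, by 1.01 ± 0.07, as did THBS1 by 0.94 ± 0.08. THBS1 and MFGE8 rose with TGFβ in siControl cells by 0.68 ± 0.08 and 0.82 ± 0.07. FN1, which encodes fibronectin, was low, with 105.3 and 140.6 normalized counts in siControl and 180.0 and 181.0 in siControl_TGFβ. Its difference with TGFβ of 0.57 ± 0.29 was not called (adjusted p = 0.219), whereas it fell after depletion with TGFβ by 1.27 on the log2 scale (SE 0.29, adjusted p = 0.00224). Without TGFβ its fall of -0.83 ± 0.29 (adjusted p = 0.0286) rested on single libraries, with -0.62 without siControl replicate 2 and -0.39 without siPHF13 replicate 1, neither called.

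The genes that link integrins to actin inside the cell were the next lists. Of 17 activators and tail adaptors, 2 fell after depletion without TGFβ, 1 rose and 2 fell with it, and 2 rose with TGFβ in each transfection. Over all genes 18.4% and 20.5% were called for depletion without and with TGFβ, and 4.79% and 1.35% for TGFβ in siControl and siPHF13 cells. The median log2 fold change of these 17 genes was 0.08 and -0.13 for depletion without and with TGFβ, and 0.24 and 0.14 for TGFβ in siControl and siPHF13 cells. LIMS1, which joins the integrin-linked kinase complex, had 6784 and 7172 normalized counts in siControl and 3069 and 2778 in siPHF13. It fell after depletion by 1.26 without and by 1.29 with TGFβ, and it rose with TGFβ by 0.69 ± 0.07 in siControl and 0.66 ± 0.07 in siPHF13 cells. LIMS1 has near-identical copies in the genome, so its count is uncertain. Of 19 focal adhesion signalling genes, 1 fell after depletion without TGFβ and 3 with it, no larger a share than the 18.4% and 20.5% of all genes, and the medians were -0.10 and -0.24. PTK2, the focal adhesion kinase, had 10078 and 10524 normalized counts in siControl and 5415 and 5466 in siPHF13, a fall of 0.92 (SE 0.06), and fell by 1.11 (SE 0.06) with TGFβ. ENAH and PXN fell by 0.63 and 0.61 with TGFβ, just past the fold threshold, and were not called without siPHF13_TGFβ replicate 2 (-0.52 and -0.51). Without siControl_TGFβ replicate 1 PXN was also not called (-0.55). After the GC and length adjustment neither was called, at -0.40 for ENAH and -0.54 for PXN.

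Of 13 membrane partners and hemidesmosome genes, 1 was called after depletion with TGFβ and 1 with TGFβ in siPHF13 cells, beside 20.5% and 1.35% of all genes, with medians of 0.12 and 0.01. PLEC, the hemidesmosome linker that binds ITGB4, was lower by -0.59 ± 0.07 after depletion with TGFβ and was not called by the count models, without siPHF13_TGFβ replicate 2 (-0.46) or after the GC and length adjustment (-0.50). CD82, a tetraspanin, rose with TGFβ in siPHF13 cells by 0.64 ± 0.08, and without siPHF13 replicate 2 (0.57) or after the GC and length adjustment (0.58) it was not called. Of 8 genes for latent TGFβ and its activation, 4 rose and 2 fell after depletion without TGFβ, and 3 rose and 1 fell with it, beside 18.4% and 20.5% of all genes called, with medians of 0.35 and 0.00. LTBP1 rose by 1.35 ± 0.07 and 1.31 ± 0.07, NRROS rose by 0.97 ± 0.08 and 1.19 ± 0.08, and TGFB3 fell by 1.57 and 1.31. With TGFβ 3 of the 8 rose and 1 fell in siControl cells, and 1 rose in siPHF13 cells. Over all genes 4.79% and 1.35% were called, and the medians of the 8 genes were 0.30 and 0.36. MMP14 rose with TGFβ by 1.33 ± 0.09 in siControl and 0.96 ± 0.09 in siPHF13 cells. TGFB1 and LTBP3 rose in siControl cells by 0.77 ± 0.09 and 0.70 ± 0.08, while TGFB3 was lower there (-0.60 ± 0.17, adjusted p = 0.024).

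The summed normalized counts of the 7 epithelial duct markers were 194637 to 205182 in siControl, 122531 to 128043 in siControl_TGFβ, 172826 to 195735 in siPHF13 and 139604 to 151004 in siPHF13_TGFβ. The keratins KRT8, KRT18 and KRT19 carried nearly all of this sum. Their siControl means were 116542, 48208 and 33372, and the next marker, MUC1, had 778.9. With TGFβ in siControl cells 3 of the 7 fell, beside 1.52% of all genes. These were KRT8 by 0.68, KRT19 by 0.84 and CDH1 by 1.84 on the log2 scale, beside the fall of ITGB4. In siPHF13_TGFβ cells 2 of the 7 were called higher than in siControl_TGFβ, beside 8.81% of all genes higher and 11.7% lower. These were KRT19 by 0.76 ± 0.06 and EPCAM by 0.94 ± 0.18, and the other 5 differed by between -0.11 and 0.54. After depletion without TGFβ 1 was called higher, EPCAM by 0.78 ± 0.18, and 1 lower, CDH1 by -1.44 ± 0.33. Of all genes 7.95% were higher and 10.4% lower, so that these marker counts were near the share of all genes. CDH1 had 403.1 and 459.5 normalized counts in siControl and 106.4 and 232.8 in siPHF13, and its call was not checked with a library left out. CD68, the 1 blood and endothelial marker in the table, had 7236 to 7360.1 normalized counts in siControl and 11903 to 13047 in siPHF13, and COL1A1 carried nearly all of the sum of the fibroblast and stellate markers. The part of these markers in the differences of the members was not tested.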

How the data were processed

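mRNA of PANC-1 cells was sequenced as paired reads. The authors trimmed the reads with Trim Galore 0.4.1, mapped them with STAR 2.7.0 to hg19, counted exon reads per gene with HTSeq 0.12.4 and normalized the counts with DESeq2. The DESeq2 version, the annotation release and the strand setting were not given in the sources used here. The deposited table holds a normalized signal for 13307 genes, with the counts of each library scaled by its DESeq2 size factor. The authors' 3 tables of fold changes and p-values were not used. In each library 100% of the values were whole reads within 0.01 read once divided by the step between values.

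Groups came from the sample titles. The untreated control columns are headed NT rather than siControl. They were read as the non-targeting siRNA, because the other headers, NCT, PHF13 and PHF13T, match the other groups. Log2(normalized count + 1) was fitted with limma 3.58.1 in R 4.3.3 with a trended prior variance over all 8 libraries, two-sided, with Benjamini-Hochberg adjustment. All 13307 genes, with the 10 members, reached the required 10 normalized counts in 2 or more libraries. With edgeR 4.0.16 and DESeq2 1.42.0, whole reads were tested in 6 libraries without the siPHF13 group. These count models were therefore not run for depletion without TGFβ, TGFβ in siPHF13 or the interaction. They called 630 and 634 genes for TGFβ in siControl cells and 2725 and 2641 for depletion with TGFβ.

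The members and lists were chosen with earlier results of these data known. All members and other integrin subunits were named, and from each list up to 3 called genes with the largest change and a mean of at least 100 normalized counts. A result named this way is not reported here. Lengths and positions came from the GENCODE v44lift37 annotation, which gave length and GC content for 12247 genes, 92% of the table. Antisense transcripts overlap exons of ITGA5, ITGA6, ITGAV and ITGB8, and a read-through transcript overlaps those of ITGB3. Where the counting did not use strand, antisense reads cannot be told apart from the members' own.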

Additional observations from a re-analysis of the deposited data

Results flagged for a closer look

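The response to TGFβ differed between siControl and siPHF13 cells by the interaction term of limma (adjusted p under 0.05 and a log2 difference over 0.58) for 3 members and 3 ligands. The log2 response in siPHF13 minus that in siControl cells was -0.73 for ITGA5, -0.60 for ITGAV and 0.66 for ITGB4. It was -0.89 for COL1A1, -1.01 for COL5A1 and -0.66 for CTGF. The call was kept in every fit that left out 1 library for ITGA5 and COL1A1. ITGAV and ITGB4 were not called in several of these fits, where their differences were between -0.62 and -0.54 and between 0.56 and 0.72. COL5A1 was not called in 5 of these 8 fits and CTGF in 3 of them, and in those fits their differences were between -1.06 and -0.90 and between -0.62 and -0.57. Each group has 2 libraries, too few to look for a library that stands apart within a group.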

How the results depend on the processing

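With 1 library left out, the number of members called ranged from 2 to 3 for depletion without TGFβ, 4 to 4 for TGFβ in siControl, 5 to 6 for depletion with TGFβ, 2 to 2 for TGFβ in siPHF13 and 1 to 3 for the interaction. The interaction called 1 member without siControl replicate 1, siControl replicate 2 or siControl_TGFβ replicate 2, and over all genes it called between 12 and 111 against 41. Without the fold threshold 9, 8, 9 and 5 members and 6308, 2114, 6712 and 409 genes passed for depletion without TGFβ, TGFβ in siControl, depletion with TGFβ and TGFβ in siPHF13. Signs turned for ITGB1 under depletion with TGFβ (-0.03 to 0.01 with 1 library left out, 0.00 without siControl_TGFβ replicate 1 and 0.01 without siPHF13_TGFβ replicate 2, and 0.10 after the GC and length correction), for the ITGB8 interaction (-0.04 to 0.12, -0.04 without siControl_TGFβ replicate 2) and for ITGA3 with TGFβ in siControl (0.00 after the GC and length correction). None of these was called in the reported fit, and the cause was not tested. The GC and length correction, chosen after seeing the data, called 4 members for depletion with TGFβ and 2 for the interaction. COL4A1 with TGFβ in siControl was not called without siControl_TGFβ replicate 2 (0.92). CTGF with TGFβ in siPHF13 was not called without siPHF13 replicate 2 (0.57).

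Whether the replicate numbers pair the libraries cannot be settled with 2 libraries a group. Correlations of deviations lay between -0.252 and 0.271 over the 6 pairs of groups, the highest between siControl_TGFβ and siPHF13_TGFβ. With the replicate block the members called numbered 2, 4, 6, 2 and 3 in the 5 comparisons, as without it. TMM factors, a pseudocount of 5, other minimums on low values and fits on only the libraries compared gave the same member counts. With 2 libraries a group, an interval on the log2 scale of about 0.13 on either side for the high members grew to 0.33 for ITGB8, the member with the fewest reads.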
